A study of Homo sapiens with 8 samples.

Results

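The protein arginine methyltransferases are the enzymes that place methyl groups on arginine residues of histones, RNA-binding proteins and signalling proteins, using S-adenosylmethionine as the methyl donor. Type I enzymes leave asymmetric dimethylarginine, type II enzymes leave symmetric dimethylarginine and type III enzymes stop at the monomethyl form. In glioblastoma the family is best known for PRMT5, whose inhibition is of interest in tumours that have lost the neighbouring genes CDKN2A and MTAP. The 8 genes described here, PRMT1, PRMT2, PRMT3, CARM1 (also called PRMT4), PRMT5, PRMT6, PRMT7 and PRMT10 (now named PRMT9), were the rows with these symbols among 23368 gene symbols in the count tables. The family was taken up because PRMT6 was nearly lost in earlier results of the same libraries, so the values of PRMT6 are given without a test, and the other 7 members, chosen by family name, were tested. All 8 passed the filter on low counts. PRMT8, a further family gene that the choice did not include, had 0 to 3 counts per library.

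RNA was sequenced from U87MG, an established human glioblastoma cell line, in 4 groups of 2 libraries: control cells labelled as having no treatment, and cells given enzalutamide, harvested after 4, 24 or 48 h. This drug is an androgen receptor antagonist, and the series asked which genes of the line respond to it. The cells grew in DMEM medium with serum. No dose, no vehicle and no harvest time of the control cells are given, and the extraction text mentions a differentiation step that the other protocols lack, so a difference from control covers everything that set the dishes apart. Whether replicate libraries derive from separate dishes is not stated, so the p-values rest on a spread between libraries that may be purely technical. Total counts were 24620833 to 37162565 per library. Markers of the line behaved unevenly: VIM, CD44 and TNC had 1830 to 13600 CPM (counts scaled to a common library size with TMM factors), GFAP had 2 to 22 counts, and SOX2, CDKN2A and MTAP had 0 or 1 count in every library. Of the markers of other cell types, the immune, endothelial, epithelial, oligodendrocyte and erythroid lists summed to at most 3.12 CPM in any library, with MOG, CD3E, AIF1, HBB and HBA1 at 0 counts throughout. The neuron list, made up mostly of SNAP25, summed to 21.2 and 22.3 CPM at 48 h, against 36.4 and 37.4 CPM in control, and its part in the results was not tested. In bulk RNA, fewer cells of a kind and less RNA per cell cannot be told apart.

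PRMT6, a nuclear type I enzyme that methylates an arginine near the tip of the histone H3 tail and is described as a transcriptional repressor, was close to absent after 48 h. It had 26.3 and 24.9 CPM in the control libraries, 32.0 and 29.9 CPM at 4 h, 23.8 and 21.5 CPM at 24 h, and 0.647 and 1.1 CPM at 48 h. The 48 h libraries lay far below the other 6, while the 4 h libraries lay above control and the 24 h libraries below it, each without overlap. The 48 h levels rest on 19 and 32 counts, with exact 95% Poisson intervals of 11.4 to 29.7 and 21.9 to 45.2 counts that cover counting error only, against 928 and 864 counts in control. The level at 48 h was 29.2-fold below control (log2 change -4.87, SE 0.17) and 25.9-fold below 24 h (log2 change -4.69, SE 0.17). The 4 h and 24 h differences from control were small, with log2 changes of 0.27 (SE 0.11) and -0.17 (SE 0.11). Among all 14448 tested genes, 25, PRMT6 among them, had at least as large a fitted fall at 48 h. Among the 7652 of these with a control mean of at least 20 CPM, 5 did, again with PRMT6 among them. These values chose the subject and are given as a description.

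**Figure D1:**
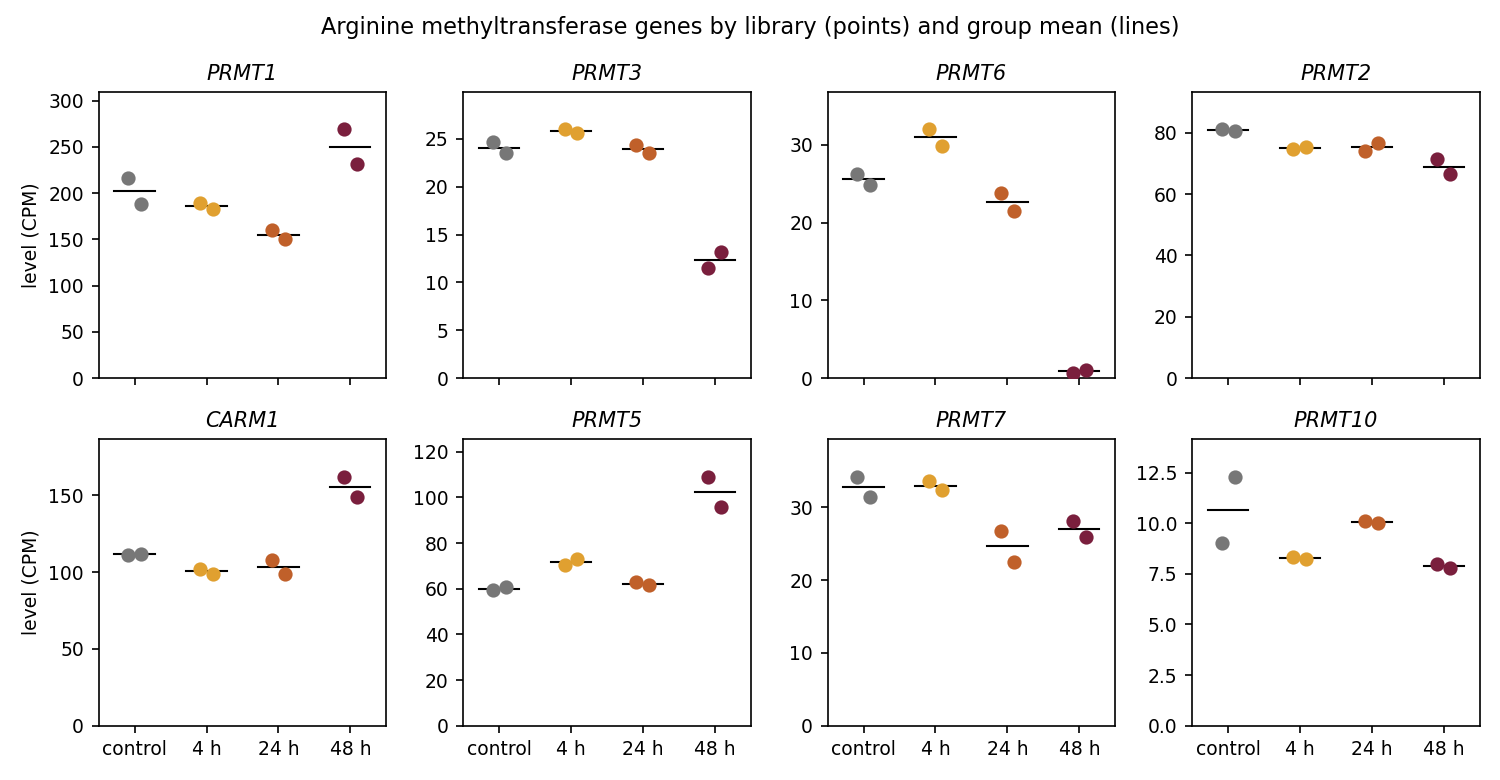
Level of each arginine methyltransferase gene in TMM-scaled CPM in control libraries and after 4, 24 and 48 h of enzalutamide (points, 2 libraries per group, lines are group means, each panel has its own axis from 0). PRMT6 sits at 0.647 and 1.1 CPM at 48 h and at 21.5 CPM or more elsewhere, PRMT3 has its lowest libraries at 48 h (11.5 and 13.2 CPM), and PRMT1, CARM1 and PRMT5 have their highest libraries at 48 h.

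PRMT6 also stood apart in gene structure. In GENCODE release 29 its coding transcript has 1 exon and 2616 bases, while the longest coding transcripts of the other 7 members have 11 to 19 exons and 1686 to 4238 bases. The sequence before its RefSeq start was set beside that of PRMT3, which had the largest fall among the tested members. Those of PRMT5 and PRMT1, which moved the other way at 48 h, are also given. CARM1, which rose then too, is left out of the printed sequences. Each line gives the 250 bases before the start (RefSeq, GRCh38.p14), 5′ to 3′ on the gene's own strand, with matches to any of 6 motifs in capitals. They lie at chr1:107056424-107056673 on the plus strand for PRMT6, chr11:20387466-20387715 on the plus strand for PRMT3, chr14:22929377-22929626 on the minus strand for PRMT5 and chr19:49677021-49677270 on the plus strand for PRMT1.
PRMT6: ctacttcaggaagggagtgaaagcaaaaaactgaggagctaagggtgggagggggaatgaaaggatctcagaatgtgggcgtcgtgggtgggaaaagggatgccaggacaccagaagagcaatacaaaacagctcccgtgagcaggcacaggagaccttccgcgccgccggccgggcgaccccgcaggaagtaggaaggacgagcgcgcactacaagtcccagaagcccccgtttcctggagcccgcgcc
PRMT3: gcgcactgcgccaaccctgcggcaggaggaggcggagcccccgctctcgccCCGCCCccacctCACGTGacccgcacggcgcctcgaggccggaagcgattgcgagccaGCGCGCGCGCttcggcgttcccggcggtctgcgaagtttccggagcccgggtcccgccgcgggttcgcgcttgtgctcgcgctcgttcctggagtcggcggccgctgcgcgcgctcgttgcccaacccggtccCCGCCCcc
PRMT5: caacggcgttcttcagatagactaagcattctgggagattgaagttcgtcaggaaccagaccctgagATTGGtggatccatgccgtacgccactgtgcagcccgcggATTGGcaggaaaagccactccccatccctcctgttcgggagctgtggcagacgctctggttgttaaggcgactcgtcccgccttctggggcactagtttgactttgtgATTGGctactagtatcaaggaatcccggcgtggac
PRMT1: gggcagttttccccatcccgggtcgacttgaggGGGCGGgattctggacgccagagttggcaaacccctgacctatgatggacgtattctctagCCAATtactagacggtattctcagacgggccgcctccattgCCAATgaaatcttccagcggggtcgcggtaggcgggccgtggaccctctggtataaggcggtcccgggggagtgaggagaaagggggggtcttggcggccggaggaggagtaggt

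The motifs searched on both strands were the CCAAT box (CCAAT), the GC box (GGGCGG), the E-box (CACGTG), the cyclic AMP response element (TGACGTCA), the TATA box (TATAAA) and the NRF1 site (GCGC, any 2 bases, GCGC). The PRMT6 window held none of them, which says only that these letters are not in it. PRMT5 held 3 CCAAT boxes and PRMT1 held 2 and a GC box, and no other member had a CCAAT box in its window. CARM1, which also rose at 48 h, held GC boxes but no CCAAT box before either of its RefSeq starts. A CCAAT box was thus not shared by all members that rose. PRMT3 held 2 GC boxes, an E-box and an NRF1 site. Among 35116 windows of the same length before RefSeq starts, 32.0% held a CCAAT box, 42.6% a GC box, 6.34% an E-box, 1.65% a cyclic AMP response element, 10.7% a TATA box and 7.16% an NRF1 site. The GC content was 60.4% for PRMT6, with 16 CpG dinucleotides, 76.8% for PRMT3, with 43, 55.6% for PRMT5, with 14, and 61.2% for PRMT1, with 17. The median over all windows was 58.0% and 11 CpG dinucleotides. Matching letters are a description of the sequence, and no library measured what binds there or which start the cells used.

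The near loss of PRMT6 at 48 h had no counterpart of similar size in the family. By edgeR's quasi-likelihood test at a Benjamini-Hochberg adjusted p under 0.05, all 7 tested members differed from control at 48 h, 3 higher and 4 lower, but 66.9% of all tested genes did so, 33.3% higher and 33.5% lower. Most genes were thus called, the family is small, and the full count was not tested against that share, so it is no result about the family. The tested members ranged in log2 change from -0.96 for PRMT3 to 0.77 for PRMT5, against -4.87 for PRMT6. PRMT6 was chosen for its fall, and only 25 of all 14448 tested genes, PRMT6 among them, fell as far. A set of 7 other genes would thus seldom hold such a fall, and the contrast is a description. With library totals as the only scaling, which lowers the median of all genes at 48 h by 0.28 on the log2 scale, 2 members were higher and 4 lower, while over all genes 2742 were higher and 6729 lower in place of 4814 and 4847.

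Among the type I enzymes, PRMT3, a mainly cytosolic enzyme that methylates a protein of the small ribosomal subunit, fell at 48 h. It had 11.5 and 13.2 CPM at 48 h, against 24.7 and 23.5 CPM in control, 1.95-fold lower (log2 change -0.96, SE 0.10, adjusted p = 5.8e-06). Its 4 h libraries (26.0 and 25.6 CPM) and 24 h libraries (24.4 and 23.5 CPM) stayed within 0.11 log2 units of control in the fit and were not called. PRMT3 thus had levels near control until 24 h and a lower level at 48 h. PRMT6 was also lower at 48 h, by far more, but its earlier levels moved more than those of PRMT3. They lay above control at 4 h (log2 change 0.27, SE 0.11) and changed by -0.45 (SE 0.11) from 4 to 24 h, not tested.

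PRMT1, which carries out most asymmetric arginine dimethylation in mammalian cells and methylates histone H4, fell at 24 h and rose at 48 h. At 24 h it had 160 and 150 CPM, against 216 and 188 CPM in control (log2 change -0.38, SE 0.09, adjusted p = 0.0098). At 48 h it had 269 and 231 CPM (log2 change 0.31, SE 0.09, adjusted p = 0.0085). Both times lay outside the control range, on opposite sides of it. The rise at 48 h is relative to the scaling, since with library totals alone the log2 change was 0.03 (adjusted p = 0.78), and it was 0.21 (adjusted p = 0.096) without control replicate 2. The fall at 24 h was no longer called when control replicate 1 (adjusted p = 0.12) or 24 h replicate 2 (adjusted p = 0.11) was left out. At 4 h PRMT1 had 189 and 183 CPM, overlapping control, and was not called.

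CARM1, the coactivator enzyme that binds p160 proteins on nuclear receptors and methylates histone H3, rose at 48 h. It had 162 and 149 CPM at 48 h, against 111 and 112 CPM in control (log2 change 0.48, SE 0.07, adjusted p = 8e-05). With library totals alone the log2 change was 0.20 (adjusted p = 0.016). At 4 h (102 and 98.8 CPM) and 24 h (108 and 98.9 CPM) its libraries lay below control without passing the test, with log2 changes of -0.15 (SE 0.07) and -0.11 (SE 0.07). The 4 h value passed it in a fit of the groups compared alone (adjusted p = 0.04), without both 48 h libraries (adjusted p = 0.042), with library totals alone (log2 change -0.22, adjusted p = 0.028) and without either 48 h replicate (adjusted p = 0.036 each).

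PRMT2, a weakly active type I enzyme with an SH3 domain, was lower at 48 h. It had 71.3 and 66.6 CPM at 48 h, against 81.1 and 80.7 CPM in control (log2 change -0.23, SE 0.07, adjusted p = 0.0087), and with library totals alone the log2 change was -0.51 (adjusted p = 3.7e-05). The groups did not overlap at 48 h, and the 4 h (74.8 and 75.2 CPM) and 24 h libraries (74.2 and 76.8 CPM) lay between them, not called.

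Of the type II enzymes, PRMT5, which methylates the Sm proteins of the spliceosome and histones in a complex with WDR77, had the largest rise of the family. It had 109 and 95.8 CPM at 48 h, against 59.4 and 60.7 CPM in control, 1.71-fold higher (log2 change 0.77, SE 0.08, adjusted p = 4.2e-06). With library totals alone the log2 change was 0.49 (adjusted p = 0.00012). At 4 h it was the 1 member called, higher, beside 28.6% of all genes called, 15% higher and 13.6% lower. It had 70.4 and 73.1 CPM at 4 h (log2 change 0.26, SE 0.08, adjusted p = 0.026), and the 24 h libraries, at 62.8 and 61.7 CPM, were not called. The 4 h call was lost with library totals alone (adjusted p = 0.064) and without either control replicate (0.14 and 0.099), either 4 h replicate (0.084 and 0.16) or either 24 h replicate (adjusted p = 0.052 each). PRMT5 overlaps an antisense RNA gene in RefSeq, and since the use of strand in counting is not given in the sources used here, reads of both cannot be told apart.

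PRMT10, the type II enzyme now named PRMT9 that methylates a subunit of the SF3B splicing complex, was the least abundant member per length in control. It had 8.0 and 7.8 CPM at 48 h, against 9.04 and 12.3 CPM in control (log2 change -0.43, SE 0.15, adjusted p = 0.023). The ratio between its control libraries was the widest of the family. Without control replicate 2 the log2 change was -0.19 (adjusted p = 0.30), and without 48 h replicate 2 the adjusted p was 0.055. At 4 h it had 8.36 and 8.24 CPM (log2 change -0.36, SE 0.15, adjusted p = 0.091), and without control replicate 1 that difference passed the test (log2 change -0.57, adjusted p = 0.024). At 24 h it had 10.1 and 10.0 CPM, inside the control range.

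PRMT7, the type III enzyme, was lower at both later times. It had 26.8 and 22.5 CPM at 24 h, against 34.2 and 31.4 CPM in control (log2 change -0.41, SE 0.10, adjusted p = 0.013). It had 28.1 and 25.9 CPM at 48 h (log2 change -0.28, SE 0.10, adjusted p = 0.027). Both calls depended on single libraries: leaving out control replicate 1 gave an adjusted p of 0.12 at 24 h and 0.17 at 48 h, and leaving out replicate 2 of the treated group gave 0.16 at 24 h and 0.091 at 48 h. At 4 h, with 33.6 and 32.4 CPM, its libraries overlapped control. PRMT1 and PRMT7 were the 2 members called at 24 h, both lower and none higher, where 22.3% of all genes were called, 9.39% lower and 12.9% higher.

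**Figure D2:**
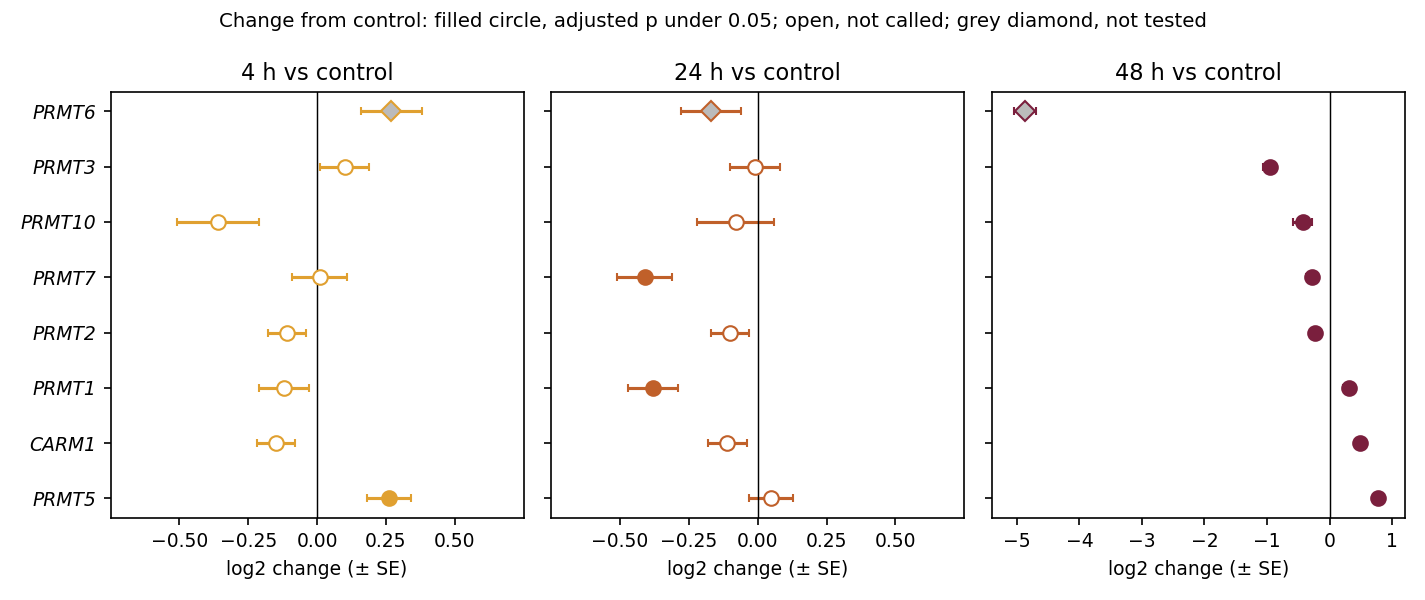
Log2 change from control with its standard error for each family gene at 4, 24 and 48 h (filled circles, adjusted p under 0.05 in edgeR's quasi-likelihood test, open circles, not called, grey diamond, PRMT6, not tested); the 48 h panel has a wider axis. PRMT6 lies at -4.87 at 48 h, while the tested members span -0.96 to 0.77.

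Between times, 4 tested members differed between 48 and 24 h and 3 between 24 and 4 h. PRMT1 (log2 change 0.69, SE 0.09, adjusted p = 3.2e-05), PRMT5 (0.72, SE 0.07, adjusted p = 6.7e-06) and CARM1 (0.59, SE 0.07, adjusted p = 1.6e-05) were higher at 48 h than at 24 h, and PRMT3 was lower (-0.95, SE 0.10, adjusted p = 6e-06), in edgeR's test. These were 3 members higher and 1 lower of 7, where 66.8% of all genes were called, 31.5% higher and 35.3% lower. With library totals alone, or with only genes of at least 5 CPM in 2 libraries, 3 were higher and 3 lower. From 4 to 24 h, PRMT1 (-0.26, SE 0.09, adjusted p = 0.032), PRMT5 (-0.21, SE 0.08, adjusted p = 0.047) and PRMT7 (-0.42, SE 0.10, adjusted p = 0.0063) were lower, 3 of 7, where 41.5% of all genes were called, 21.2% higher and 20.3% lower. That count was 0 or 1 when any of the 4 libraries of these groups was left out. The comparisons with control share the control libraries and are not independent of each other.

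Per kilobase of the longest coding transcript, PRMT6 moved to the end of the family at 48 h. PRMT5 and PRMT2 changed places, as did PRMT7 and PRMT3. In control, PRMT1 led with 120 ± 11.8 CPM per kilobase (SD, n = 2 libraries, as below), followed by CARM1 (33.5 ± 0.121), PRMT2 (28.1 ± 0.0854) and PRMT5 (23.7 ± 0.357). PRMT6 (9.78 ± 0.389) came next, above PRMT3 (9.09 ± 0.321), PRMT7 (7.74 ± 0.456) and PRMT10 (3.03 ± 0.656). The ranges of neighbours in this order did not overlap, although those of PRMT6 and PRMT3 were close (lowest PRMT6 library 9.5 and highest PRMT3 library 9.31). At 24 h PRMT3 and PRMT6 overlapped (9.02 ± 0.246 and 8.66 ± 0.619). At 48 h PRMT6 was last, at 0.334 ± 0.123 CPM per kilobase, below PRMT10 at 2.24 ± 0.0388. PRMT7 (6.37 ± 0.36) then stood above PRMT3 (4.66 ± 0.444), with ranges apart. PRMT5 stood above PRMT2 at 4 h (28.4 ± 0.764 and 26.0 ± 0.104) and at 48 h (40.5 ± 3.77 and 23.9 ± 1.17), with ranges apart both times, and below it at 24 h (24.6 ± 0.314 and 26.2 ± 0.633) as in control. The transcript lengths come from a later annotation than the counts, so the order is approximate.

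The genes whose pattern was nearest to that of PRMT6 were sought among 10919 genes whose log2 CPM averaged 2 or more, as the smallest root mean square difference over the 8 libraries after subtraction of each gene's control mean. They were GPX3 (0.377 log2 units), the secreted glutathione peroxidase, SMAD6 (0.445), an inhibitor of BMP signalling, the zinc finger gene ZC3H4 (0.486), FAM212B (0.487), CSF3 (0.50), which encodes granulocyte colony-stimulating factor, and LCMT2 (0.513). GPX3 had 0.885 and 1.07 CPM at 48 h, against 18.8 and 21.4 CPM in control. ZC3H4 had 1.16 and 2.51 CPM at 48 h, against 25 and 28.5 CPM in control. The 48 h log2 changes of the 6 genes ranged from -5.18 for SMAD6 to -3.87 for ZC3H4, and their 4 h changes from -0.11 for GPX3 and CSF3 to 1.09 for SMAD6. No other family member came near: PRMT3, the nearest, stood at 1.94 log2 units and rank 1213, and PRMT5, the farthest, at 2.81 and rank 9700. The likeness rests mainly on the depth of the 48 h fall and is a description.

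**Figure D3:**
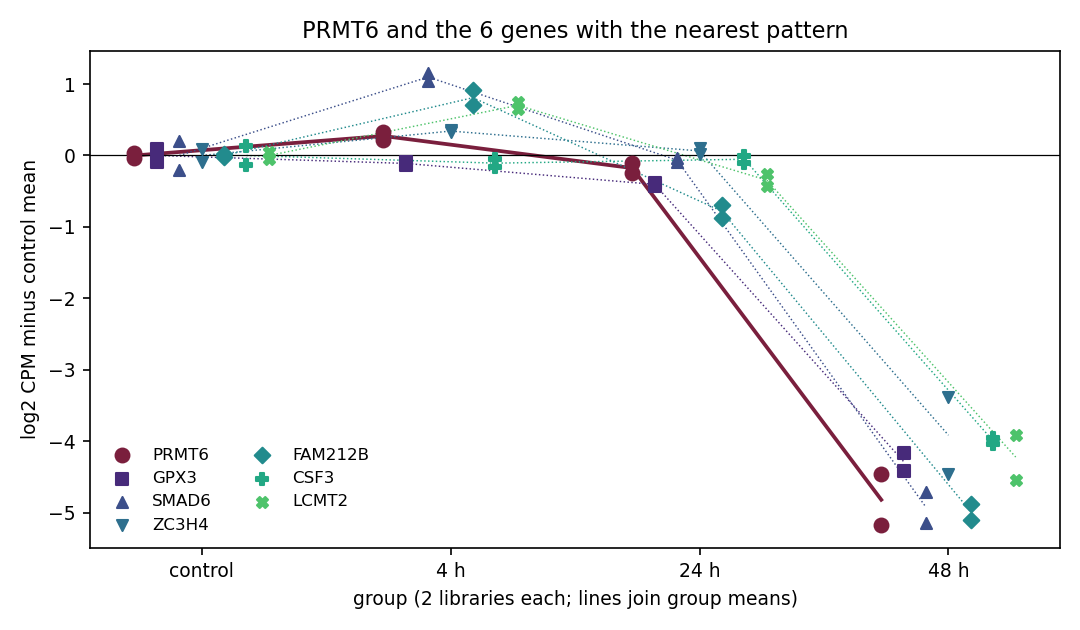
Log2 CPM minus the control mean for PRMT6 and the 6 genes with the smallest root mean square difference from it, in each group (points are libraries, 2 per group, lines join group means). The fitted changes of the 6 genes lie between -0.78 and 0.06 at 24 h and between -5.18 and -3.87 at 48 h.

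On chromosome 1, the nearest protein-coding genes in RefSeq with counts in these libraries were NTNG1 and VAV3, which lie in this order beyond PRMT6. NTNG1, a netrin-like adhesion gene, had 18.0 and 14.7 CPM at 48 h, against 39.9 and 41.7 CPM in control (log2 change -1.32, SE 0.10, edgeR adjusted p = 8.5e-07), and it was higher at 24 h (0.59, SE 0.10, adjusted p = 0.0015). VAV3, a guanine nucleotide exchange factor, had 10.9 and 14.1 CPM at 48 h, against 21.7 and 23.7 CPM in control (log2 change -0.86, SE 0.16, adjusted p = 0.0006), and it was lower at 4 h too, with 12.6 and 17.7 CPM (-0.58, SE 0.16, adjusted p = 0.019). Both were lower at 48 h by less than PRMT6 was.

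The lists of related genes below are read beside the share of all genes that passed the test, which was 28.6% for 4 h, 22.3% for 24 h and 66.9% for 48 h (33.3% higher and 33.5% lower). In the methyl donor supply, MAT2A was called at all 3 times, higher at 4 h and lower later. MAT2A, which makes S-adenosylmethionine, rose at 4 h to 311 and 331 CPM, against 124 and 126 CPM in control (log2 change 1.36, SE 0.11, edgeR adjusted p = 1.3e-05). It was lower at 24 h, with 45.6 and 42.3 CPM (log2 change -1.50, SE 0.12, adjusted p = 1.1e-05), and at 48 h, with 29 and 40.6 CPM (log2 change -1.84, SE 0.12, adjusted p = 2.1e-07). No group of MAT2A libraries overlapped control. Of the 7 measured of 8 supply genes, 4 h brought 2 rises and 1 fall, 24 h 1 fall (MAT2A), and 48 h 3 rises and 3 falls (2 and 4 with library totals alone), with a 48 h median of -0.16 beside -0.02 over all genes. The 4 h count was 1 without 4 h replicate 1, and the 24 h count was 2 without either 48 h replicate. MTR, the methionine synthase, fell at 48 h to 13.3 and 16.8 CPM, against 48.8 and 55.2 CPM in control (log2 change -1.79, SE 0.13), and its reductase MTRR was lower too (-0.53, SE 0.09), after a rise at 4 h (0.43, SE 0.09, adjusted p = 0.0037). AHCY, which clears the inhibitory product S-adenosylhomocysteine, rose to 586 and 510 CPM, against 342 and 314 CPM in control (0.74, SE 0.07). MTAP, the eighth gene, had at most 1 count.

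BTG1 and PRDM1 had the largest rises at 48 h among the partners of the enzymes. All 12 partners were measured: 4 h brought 4 rises and 2 falls, 24 h 2 rises, and 48 h 6 rises and 1 fall (median 0.18), so that 7 of 12 were called at 48 h. With library totals alone there were 2 rises and 2 falls at 4 h, 2 rises and 1 fall at 24 h, and 3 rises and 4 falls at 48 h. The 6 calls at 4 h became 3 with no filter, and 1 to 3 when any control, 4 h or 24 h library was left out. At 24 h the 2 calls became 1 without control replicate 2 or 24 h replicate 1, and 4 without either 48 h replicate. BTG1, an antiproliferative protein that binds PRMT1, had 133 CPM in both 48 h libraries, against 44.3 and 39.1 CPM in control (log2 change 1.68, SE 0.08, adjusted p = 1.8e-08). Its relative BTG2 rose at 24 h, with 6.43 and 8.78 CPM against 2.35 and 2.19 CPM in control (1.74, SE 0.20, adjusted p = 0.00013), and was not called at 48 h. C17orf79, also called COPRS, which links PRMT5 to histones, rose at 48 h by 0.75 (SE 0.09), RIOK1, a PRMT5 adaptor, by 0.55 (SE 0.10) at 4 h and 0.33 (SE 0.10) at 48 h, and PRDM1, a repressor that recruits PRMT5, by 0.73 (SE 0.16) and 1.84 (SE 0.16).

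Enzymes that oppose or border on arginine methylation were few. Of 5 measured of 7 genes, 4 h brought 2 rises and 1 fall, 24 h 1 rise, and 48 h 2 rises and 1 fall (1 and 2 with library totals alone, which also turned the 24 h rise of DDAH1 into no call and gave 1 fall; 48 h median 0.48). The 24 h rise was also lost when any control, 4 h or 24 h library was left out, and without either 48 h replicate the 24 h calls numbered 3. JMJD6, a hydroxylase reported to demethylate arginine, had 82.0 and 87.8 CPM at 4 h, against 42.8 and 42.9 CPM in control (log2 change 0.99, SE 0.09, adjusted p = 1.8e-05), and rose by 0.58 (SE 0.09) at 48 h. DDAH1, which breaks down free dimethylarginine, rose at 4 h to 16.5 and 19.3 CPM, against 5.95 and 6.67 CPM in control (1.51, SE 0.16), and its relative DDAH2 rose at 48 h by 0.48 (SE 0.10). PADI3, a peptidylarginine deiminase, was lower at 4 h (log2 change -1.14, SE 0.21) and at 48 h (-0.97, SE 0.20).

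Proteins with Tudor domains, some of which read methylated arginine, were measured for 9 of 10 genes. At 4 h 2 fell, SMNDC1 (log2 change -0.30, SE 0.07) and SETDB1 (-0.30, SE 0.09), and at 24 h TDRD7 rose (0.38, SE 0.10). The 24 h call was lost with library totals alone, without control replicate 1 and without either 24 h replicate. The 2 calls at 4 h became 0 or 1 when any control, 4 h or 24 h library was left out and 4 without either 48 h replicate, and without either 48 h replicate the 24 h calls numbered 2. At 48 h 3 rose and 2 fell (3 and 4 with library totals alone, 2 and 1 without 48 h replicate 1; median 0.06). SND1, a reader of symmetric dimethylarginine, had 1100 and 1010 CPM at 48 h, against 547 and 539 CPM in control (0.96, SE 0.06, adjusted p = 1.4e-07). SMNDC1, a splicing factor, rose by 0.82 (SE 0.07) and PHF20 was lower (-0.62, SE 0.09). The remaining rise at 48 h was that of SMN1, at low levels (1.57 and 0.928 CPM, against 0.425 and 0.489 CPM in control). SMN2, the gene not measured, had at most 4 counts. How reads shared by SMN1 and SMN2 were counted is not given in the sources used here, so the values of both are uncertain.

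Of 24 known substrates, all measured, the rises numbered 5 at 4 h, 5 at 24 h and 14 at 48 h, against 6, 3 and 6 falls, with a 48 h median of 0.27. With library totals alone there were 2 rises and 8 falls at 4 h, 4 rises and 5 falls at 24 h, then 8 rises and 9 falls at 48 h, so the balance of rises and falls depended on the scaling. Leaving out a control or 4 h library left 5 or 6 of the 11 calls at 4 h, and leaving out a control or 24 h library left 3 to 5 of the 8 calls at 24 h. SFPQ, a nuclear splicing and paraspeckle protein, rose at 4 h to 338 and 353 CPM, against 225 and 233 CPM in control (log2 change 0.59, SE 0.06). It was lower at 24 h (-0.61, SE 0.06) and at 48 h, with 100 and 106 CPM (-1.15, SE 0.06, adjusted p = 4.6e-08). TAF15, an RNA-binding protein, was lower at 48 h (-1.05, SE 0.07). NPM1 rose at 48 h (0.76, SE 0.06), and RBMX was lower at 4 h (-0.36, SE 0.06) and 24 h (-0.37, SE 0.06); both have near-identical copies in the genome that may share reads, so their values are uncertain.

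Genes that published work has placed under repression by PRMT6 did not move as 1 group. Of 4 measured of 5, 3 were higher at 48 h, CDKN1A and CDKN1B among them, and THBS1 was lower (median 0.45), and with library totals alone 2 were higher and 1 lower. At 24 h 3 of the 4 had risen (2 with library totals alone), and at 4 h 1 had risen and 1 had fallen. CDKN1A, the cell cycle inhibitor p21, had 636 and 575 CPM at 48 h, against 226 and 220 CPM in control (log2 change 1.44, SE 0.07, adjusted p = 1.6e-08). It was higher at 24 h as well, with 342 and 348 CPM (0.63, SE 0.07, adjusted p = 7e-05). CDKN1B, the inhibitor p27, fell at 4 h (-0.65, SE 0.08) and rose by 0.25 (SE 0.08) at 24 h and 0.24 (SE 0.08) at 48 h, the last less than the 0.28 by which library totals shift all genes and not called with them. THBS1, which encodes the angiogenesis inhibitor thrombospondin, rose at 4 h to 152 and 142 CPM, against 25.6 and 28.6 CPM in control (2.44, SE 0.09, adjusted p = 2.4e-08), and was lower at 48 h, with 10.1 and 11.4 CPM (-1.33, SE 0.10, adjusted p = 3.8e-07). HOXA2 had at most 8 counts.

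Of the 5 nuclear receptor coactivators that work with CARM1 and PRMT1, 1 fell at 4 h, none was called at 24 h and 3 fell at 48 h (median -0.67, the same counts with library totals alone). Without 48 h replicate 1 there were 3 falls and 2 rises at 48 h, and without either 48 h replicate 1 rise and 1 fall at 4 h. NCOA3 had 47.1 and 60.0 CPM at 48 h, against 81.8 and 89.0 CPM in control (log2 change -0.67, SE 0.10). NCOA2 was lower at 4 h (-0.97, SE 0.13) and at 48 h (-0.67, SE 0.12), and the acetyltransferase EP300 at 48 h (-0.71, SE 0.16). CARM1 itself was higher at that time.

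The lysine methyltransferases, the other large set of histone methylating enzymes, were set beside the family. Of 31 genes, all measured, rises numbered 3 at 4 h, 8 at 24 h and 15 at 48 h, against 9, 2 and 12 falls (with library totals alone 4 rises, 3 falls at 24 h and 9 rises, 14 falls at 48 h). The 12 calls at 4 h became 7 without control replicate 2 and 5 without 4 h replicate 1, and the 10 calls at 24 h became 3 to 5 without a control or 24 h library. Their 48 h log2 changes ran from -1.77 to 1.55, with a median of 0.17. The fall of PRMT6 lay outside this range, but PRMT6 was chosen for it. Only 25 of all 14448 tested genes, PRMT6 among them, fell as far, so few lists of this size would hold such a gene. EZH1, a catalytic subunit of Polycomb complex, had 73.7 and 73.0 CPM at 48 h, against 24.0 and 26.3 CPM in control (1.55, SE 0.08, adjusted p = 3.1e-08). EZH2, its counterpart in dividing cells, was lower at 4 h (-0.47, SE 0.09) and rose at 24 h (1.18, SE 0.08) and 48 h (0.68, SE 0.08). WHSC1 had -0.64 (SE 0.08) at 4 h, 0.50 (SE 0.07) at 24 h and 0.24 (SE 0.07) at 48 h, and WHSC1L1 reached 1.18 (SE 0.08) at 48 h. SUV39H1, which methylates heterochromatin, was lower at 4 h (-0.79, SE 0.10) and 48 h (-0.71, SE 0.10) and higher at 24 h (0.38, SE 0.10), and PRDM2 was higher at 4 h (0.59, SE 0.09) and lower at 48 h (-1.03, SE 0.09). For some genes the 2 libraries of 48 h lay far apart. MLL2 (-1.73, SE 0.35) had 13.7 and 41.8 CPM in them, against 80.5 and 104 CPM in control.

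**Figure D4:**
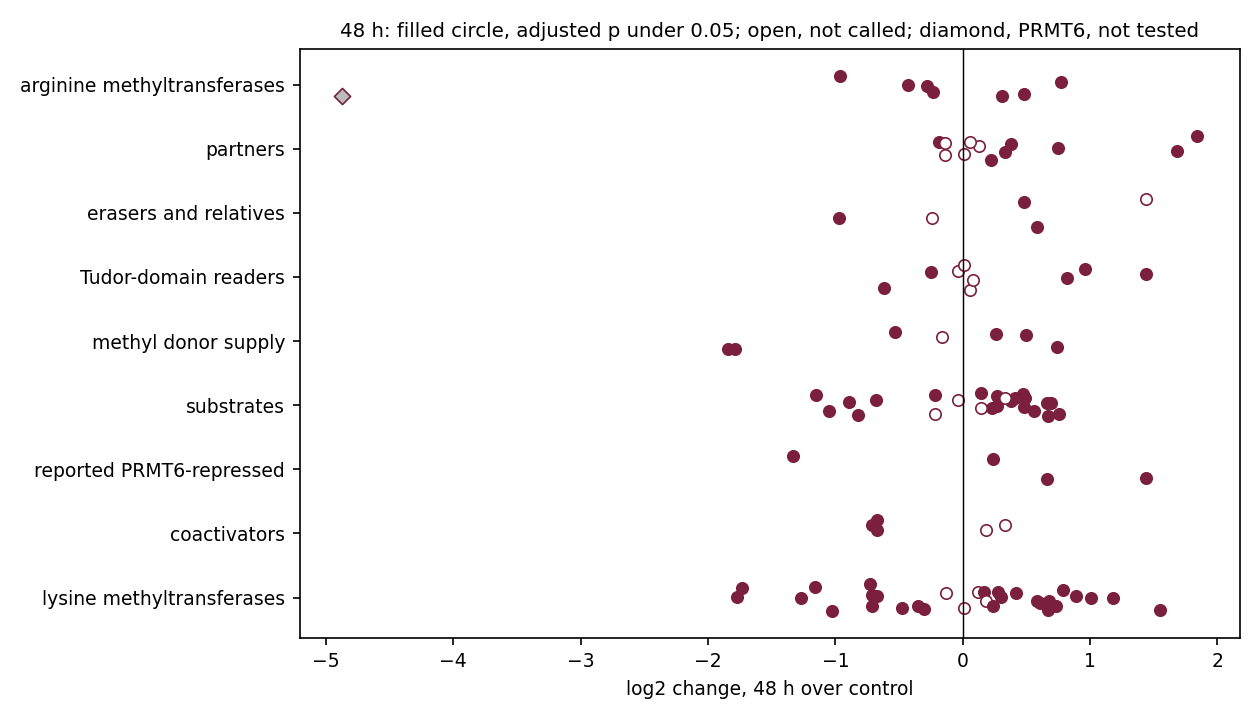
Log2 change at 48 h over control for each measured gene of the family and of 8 related lists (filled circles, adjusted p under 0.05 in edgeR's quasi-likelihood test, open circles, not called, diamond, PRMT6, not tested; vertical spread within a list only separates the points). PRMT6, which was chosen for its fall, lies at -4.87, outside the range of every list shown, whose lowest gene is MAT2A at -1.84.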

How the data were processed

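RNA-seq libraries of U87MG cells had 1 deposited table each, in which the authors gave raw integer counts for gene symbols. Per the submitters' processing notes, Bowtie and the builds hg19 and GRCh37 were used; how reads were assigned to genes, with which annotation and strand rule, is not given in the sources used here. Of 23368 names, 28 had become dates and stayed in the totals. In R 4.3.3 with edgeR 4.0.16, filterByExpr kept 14448 genes, TMM factors were 0.870 to 1.08, and a quasi-likelihood model of the 4 groups was fitted over all 8 libraries (4 residual degrees of freedom). All groups share 1 estimate of the spread per gene, but the replicates did not agree equally well. Chi-square per degree of freedom between the 2 libraries of a group was 20.8 (48 h), 14.6 (4 h), 6.92 (control) and 4.50 (24 h). SEs and p-values may thus be too small at 48 h and too large at 24 h, which was not tested. Adjusted p-values are Benjamini-Hochberg over all tested genes, called under 0.05; the SE is the size of the log2 change over the root of its F value. Levels are TMM-scaled CPM. The steps were tested on simulated data.

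Members and lists were chosen with earlier results of these data known. Named list genes were the 3 called genes with the smallest p at 48 h and 2 each at 4 and 24 h. SMN1, MLL2 and genes below the filter were named outside this rule. Lengths and exons come from GENCODE 29 (91.6% of tested genes matched by symbol), promoters from RefSeq. Alternatives were DESeq2 1.42.0, its size factors or library totals in edgeR, no filter, at least 5 CPM in 2 libraries, limma-voom (limma 3.58.1), the replicate number as a block, only the groups compared, each library left out and, chosen after seeing the data, a fit without the 48 h libraries. The values of 1 list gene are not reported here.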

Additional observations from a re-analysis of the deposited data

Results flagged for a closer look

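Several members differed in their change from control between time points, by edgeR's quasi-likelihood test of the difference itself, in which the control libraries cancel (adjusted p-values over all genes, 2 libraries per group). PRMT1 differed by 0.69 log2 units between 48 h and 24 h (adjusted p = 3.2e-05) and by -0.26 between 24 h and 4 h (adjusted p = 0.032). These differences do not place PRMT1 above or below control. Its 24 h fall and 48 h rise from control come from the separate tests above and depended on single libraries. With library totals alone the 48 h change from control was 0.03. PRMT5 differed by 0.72 between 48 h and 24 h (adjusted p = 6.7e-06) and by -0.21 between 24 h and 4 h (adjusted p = 0.047). CARM1 differed by 0.59 between 48 h and 24 h (adjusted p = 1.6e-05) and PRMT3 by -0.95 over the same step (adjusted p = 6e-06). PRMT7 differed by -0.42 between 24 h and 4 h (adjusted p = 0.0063). These repeat the tests between times given above, where 66.8% of all genes were called for 48 h against 24 h and 41.5% for 24 h against 4 h. With no filter the PRMT5 step between 24 h and 4 h was not called (-0.19, adjusted p = 0.097). Nor was it called without either control replicate (-0.2 each), although control is not part of that comparison. With a 4 h or 24 h library left out, that step ran from -0.23 to -0.18 for PRMT5 and from -0.31 to -0.21 for PRMT1.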

How the results depend on the processing

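The fitted log2 change of PRMT6 at 48 h ran from -5.29 without 48 h replicate 2 to -4.53 without 48 h replicate 1. The number of members called at 48 h stayed at 7 except with library totals (6, PRMT1 lost) and with some single libraries left out. With 1 library left out, the members called numbered 0 to 2 (4 h), 0 to 2 (24 h), 5 to 7 (48 h), 0 to 3 for 24 h against 4 h and 4 to 5 for 48 h against 24 h. The same fits gave 2227 to 5783 genes called at 4 h, 1349 to 4954 at 24 h, 8261 to 9844 at 48 h, 3823 to 7338 for 24 h against 4 h and 8273 to 9811 for 48 h against 24 h, and 21 to 51, 11 to 40 and 65 to 76 list genes at 4, 24 and 48 h. At 4 h, 2 members were called with only the groups compared and 2 without the 48 h libraries. At 24 h, 5051 genes were called with only the groups compared and 4907 without the 48 h libraries, in place of 3222; the cause was not tested. None of the changes that turned sign was called: PRMT7 at 4 h with library totals (-0.05) and no filter (-0.01), and -0.05 to 0.07 over single libraries left out; PRMT3 at 24 h without control replicate 1 (0.03) or 24 h replicate 2 (0.02), with a range of -0.05 to 0.03 over single libraries; PRMT5 at 24 h with library totals (-0.01); PRMT10 at 24 h (-0.29 to 0.16 over single libraries left out); PRMT2 between 4 and 24 h with DESeq2 (-0.01), its size factors (-0.01), the 5 CPM filter (0.00), without the 48 h libraries (-0.01) and over single libraries left out (-0.01 to 0.04); CARM1 there over single libraries left out (-0.02 to 0.11); and PRMT7 between 24 and 48 h with library totals (-0.09). With the replicate block, the members called numbered 1 (4 h), 2 (24 h) and 7 (48 h), as without it, and 4624, 3749 and 9884 of all genes; same-numbered libraries did not deviate together in every pair (r of -0.00488 to 0.135), so the numbers were not taken as pairs.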

Other observations

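The 48 h changes of genes with a single exon, as PRMT6 has, were counted after the values of PRMT6 were seen. Of 260 tested genes whose coding transcripts in GENCODE 29 all have 1 exon, 140 (53.8%) were called lower and 50 (19.2%) higher at 48 h in edgeR's test. The rest were not called, and the median log2 change was -0.69. PRMT6, whose fall chose the subject, was not taken out of these counts. Of 12968 tested genes with transcripts of more than 1 exon, 4283 (33.0%) were lower and 4515 (34.8%) higher, with a median of 0.00. Over all tested genes, 33.5% were lower and 33.3% higher. At 24 h the medians were -0.14 and 0.02, and at 4 h they were 0.03 and 0.00. Of the 6 genes nearest to PRMT6 in pattern, LCMT2 has 1 exon in its longest coding transcript and the others have 2 to 15. These counts describe the libraries and were not tested as a set.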
